A study of Mus musculus with 4 samples.

Results

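The genes described here build the contractile and adhesive cytoskeleton of the cell. They comprise 44 named genes for actins, myosins, tropomyosins, actin-binding proteins and focal adhesion proteins, together with 2 transcription regulators of that set, Srf and Myocd. A gene was represented by array rows whose platform annotation gives exactly 1 symbol equal to its name, and by the row with the highest mean where there were several. This rule found 43 of the 44 genes, out of 19938 genes measured. Actg1, the gamma actin of non-muscle cells, has no row of its own and is named only.

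RNA was measured on 4 Affymetrix mouse arrays, each holding total RNA of untreated lung fibroblasts grown out of collagenase-digested lungs of mice 3 to 4 weeks old. Samples A and B of 1 group are labelled KrasD12 for their genotype and belong to lines that the design text names SKY. The allele is given there as K-Ras G12D. WT samples A and B were wild type. Each genotype is represented by 1 numbered line, which means that effects of the genotype and of the line cannot be told apart. The labels do not state that A and B were cultured separately, so the p-values rest on a spread between samples that may be technical. How the genotype was made is not given in the labels. The growth protocol speaks of a myofibroblast culture, checked for purity by immunofluorescence.

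Fibroblasts carry actin filaments that non-muscle myosin pulls into stress fibres, and focal adhesions tie the ends of these fibres to integrins and the matrix. When a fibroblast becomes a myofibroblast it adds smooth-muscle proteins to the fibres, of which alpha smooth-muscle actin is the usual marker. Many of these genes are targets of SRF, a transcription factor that binds the CArG box with the coactivators myocardin and MRTF, the MRTF proteins being held in the cytoplasm by monomeric actin.

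The members were read in 4 classes. 19 are muscle-type genes, made mainly in smooth or striated muscle or added in myofibroblasts. 10 are actin, myosin, calponin, transgelin and tropomyosin genes used by most cells, 9 of them measured. 13 encode adhesion and crosslinking proteins, and 2 are the regulators. All values are deposited log2 expression values, and each difference is KrasD12 minus WT on that scale. The deposited columns do not share 1 distribution: the median of all rows was 6.24 and 6.26 in KrasD12, against 5.90 and 5.91 in WT, and the median difference of all genes was 0.26. Rose and fell are therefore kept for genes that limma called (adjusted p under 0.05) with 1 direction on both scalings, the deposited one and a quantile normalization of the 4 columns. The dim level, 5.15, is the 95th percentile of the means of 1210 olfactory and vomeronasal receptor rows, genes with little expression in fibroblasts. 40 of the 43 measured members have a mean above it.

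More members fell than rose in KrasD12 fibroblasts. Among the 43 measured members there were 18 falls, 4 rises and 21 without a call on both scalings, beside 11.5% of all genes that fell and 22.4% that rose. On the deposited values alone 21 were lower and 6 higher, beside 11.9% and 50.1% of all genes, and after quantile normalization alone 22 and 4, beside 24.4% and 22.5%. In 32 members both KrasD12 values lay below both WT values, as in 18.7% of all genes, and in 8 members above them, as in 64.3%. In bulk RNA, fewer cells of a type and less RNA per cell cannot be told apart. The muscle-type class had 11 falls and 2 rises among 19 genes, with a median difference of -0.74 as deposited and -0.63 when quantile normalized. The ubiquitous class had 5 falls and 0 rises among 9 genes, with medians of -0.33 and -0.36. The adhesion class had 2 falls and 2 rises among 13 genes, with medians of -0.13 and -0.08. Neither regulator was called on both scalings. The median level was 11.06 in the ubiquitous class and 10.61 in the adhesion class, against 7.60 in the muscle-type class. The adhesion genes called on both scalings, Csrp2, Pdlim5, Palld and Tgfb1i1, all had means below 10. Of the 864 genes with a mean above 10, 26.5% fell and 21.6% rose (36.1% lower and 22.2% higher as deposited, 26.5% and 24.7% when quantile normalized). The share that fell was 57.9% in the muscle-type class, 55.6% in the ubiquitous class and 15.4% in the adhesion class. No member passed once either WT sample was omitted, where limma's smallest adjusted p over all 19938 genes was 0.0552 (without A) and 0.053 (without B), though 25 members had an unadjusted p under 0.05 each time. With KrasD12 A left out 16 of the 22 calls were kept, and with KrasD12 B left out 14.

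**Figure D1:**
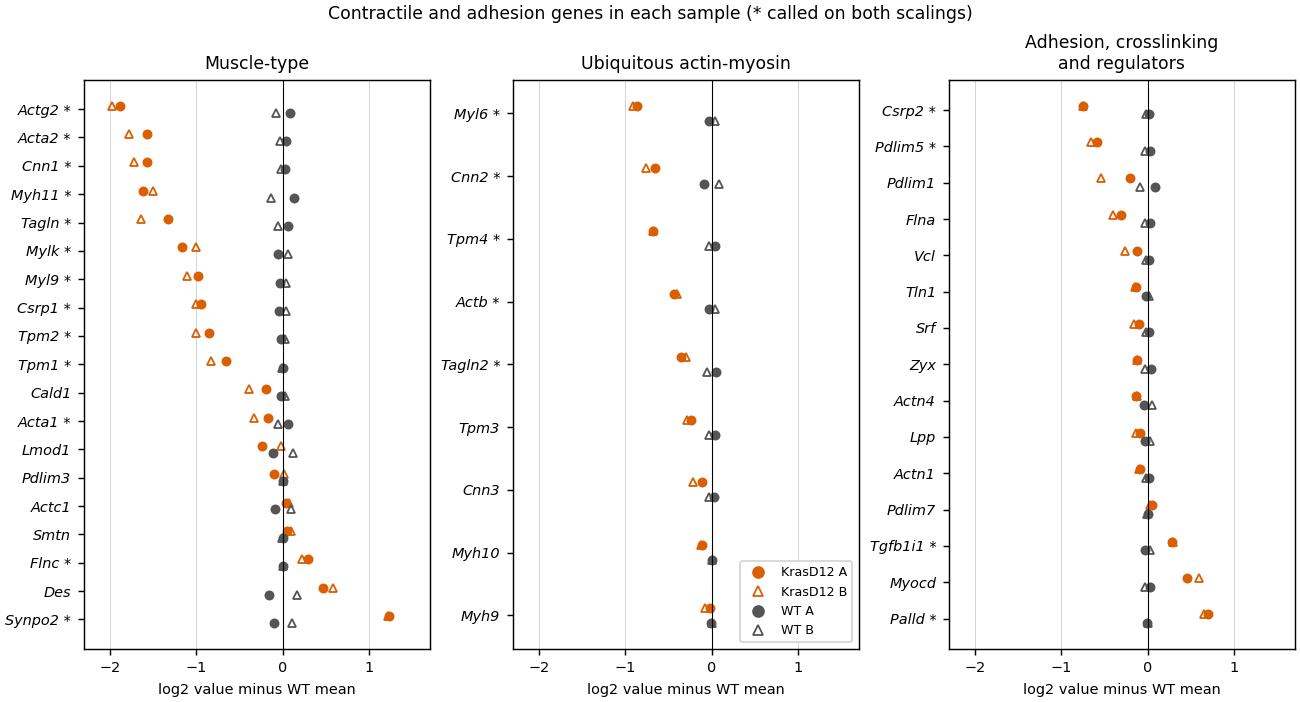
Log2 value of each measured member in each sample, minus the WT mean of that gene, in 3 panels by class. Orange marks are KrasD12 and grey marks WT, filled circles sample A and open triangles sample B, and an asterisk marks genes called on both scalings. Actg2, Acta2, Cnn1, Myh11 and Tagln lie more than 1 log2 unit below WT in both KrasD12 samples.

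Both smooth-muscle actins fell, and on the deposited values they had the widest falls of all members. When quantile normalized, Cnn1 (-1.91) and Myh11 (-1.86) lay below Acta2 (-1.59), so the place of Acta2 in that order is not settled. Acta2, which encodes alpha smooth-muscle actin, had log2 values of 10.43 and 10.22 in KrasD12 A and B, against 12.03 and 11.96 in WT A and B. Its difference was -1.67 ± 0.09 (limma's moderated SE, n = 2 per group, adjusted p = 0.000439), or a WT level 3.18 times that of KrasD12. The gene stayed bright in both lines, and no KrasD12 value came near a WT value. Actg2, the gamma smooth-muscle actin of gut and airway muscle, had values of 5.41 and 5.32 in KrasD12, against 7.37 and 7.21 in WT. It fell by 1.93 ± 0.09 (adjusted p = 0.000277), and ranked 46 from the lowest of all 19938 differences. Its KrasD12 mean of 5.37 lies just above the dim level, where array values are compressed, and after quantile normalization the difference was -2.23.

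The actins of striated muscle differed little. Acta1, the skeletal-muscle actin, had 7.55 and 7.39 in KrasD12, against 7.78 and 7.67 in WT. It fell by 0.26 ± 0.09 at an adjusted p of 0.0494 (0.00622 after quantile normalization, where the difference was -0.47), and the call was lost with either KrasD12 sample left out. Actc1, the cardiac-muscle actin, had 6.79 and 6.83 in KrasD12, against 6.66 and 6.85 in WT, so the groups overlapped. Actb, the beta actin of nearly all cells, had 12.92 and 12.95 in KrasD12, against 13.32 and 13.39 in WT. It fell by 0.42 ± 0.07 (adjusted p = 0.00456), but cyclic loess normalization gave -0.17 and no call, and the call was lost with either KrasD12 sample left out. The sequences of these related genes were not compared, so signal shared between their probes cannot be separated here.

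Calponin and transgelin, proteins that bind along actin filaments and mark smooth muscle, fell as well. Cnn1, the calponin of smooth muscle, had 6.34 and 6.19 in KrasD12, against 7.94 and 7.89 in WT, a difference of -1.65 ± 0.08 (adjusted p = 0.000341) and of -1.91 after quantile normalization. Tagln, which encodes transgelin or SM22 alpha, had 8.98 and 8.67 in KrasD12, against 10.37 and 10.25 in WT. Its difference was -1.49 ± 0.12 (adjusted p = 0.000825) and ran from -1.64 to -1.33 as each sample was left out. In both genes the lower WT sample stood above the higher KrasD12 sample by more than the whole spread within either group. Their broadly expressed relatives fell by less. Cnn2 had 10.75 and 10.64 in KrasD12, against 11.32 and 11.49 in WT, and fell by 0.71 ± 0.09 (adjusted p = 0.00219). Tagln2 fell by 0.33 ± 0.07 (adjusted p = 0.0127). Cnn3, at 10.43 and 10.32 in KrasD12, against 10.57 and 10.51 in WT, was not called (-0.17 ± 0.07, adjusted p = 0.105). The calls of Cnn2 and Tagln2 were lost with either KrasD12 sample left out.

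The motor proteins of smooth muscle were lower, while the non-muscle heavy chains were not called. Myh11, the smooth-muscle myosin heavy chain, had 5.72 and 5.83 in KrasD12, against 7.47 and 7.20 in WT. It fell by 1.56 ± 0.11 (adjusted p = 0.000666), a call that was lost with KrasD12 B left out, although the difference stayed between -1.70 and -1.43 as each sample was omitted. Mylk encodes myosin light chain kinase, which starts contraction by phosphorylating the regulatory light chain, and had 6.81 and 6.97 in KrasD12, against 7.91 and 8.03 in WT (-1.08 ± 0.09, adjusted p = 0.000847). Myl9, a regulatory light chain of smooth muscle and stress fibres, had 9.53 and 9.41 in KrasD12, against 10.48 and 10.55 in WT (-1.05 ± 0.08, adjusted p = 0.000718). Only the heavy chains of non-muscle myosin showed another pattern, since Myl9 also serves stress fibres. Myh9 had 11.46 and 11.41 in KrasD12, against 11.48 and 11.49 in WT. Myh10 had 10.28 and 10.27, against 10.39 in both WT samples. Neither heavy chain was called (Myh9 -0.05 ± 0.07, adjusted p = 0.536, and 0.11 after quantile normalization; Myh10 -0.12 ± 0.06, adjusted p = 0.17).

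Myl6, the essential light chain that smooth-muscle and non-muscle myosin share, fell while neither non-muscle heavy chain was called. Its brightest row had 11.00 and 10.96 in KrasD12, against 11.83 and 11.90 in WT (-0.89 ± 0.07, adjusted p = 0.000781). The array has 6 rows for Myl6, and their differences ran from -1.02 to -0.88, all in 1 direction. Rows of 1 gene can bind the same transcript and are not independent.

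Tropomyosins, which lie along the actin filament and control access of myosin, fell in 3 of 4 genes. Tpm2 had 8.48 and 8.33 in KrasD12, against 9.31 and 9.35 in WT (-0.93 ± 0.08, adjusted p = 0.000939). Tpm1 had 11.09 and 10.92 in KrasD12, against 11.75 and 11.74 in WT (-0.74 ± 0.08, adjusted p = 0.00162). Tpm4, a short tropomyosin of non-muscle filaments, had 10.72 in both KrasD12 samples, against 11.43 and 11.36 in WT (-0.68 ± 0.07, adjusted p = 0.00128). Tpm1 and Tpm2 make muscle and non-muscle isoforms from 1 gene, and a gene-level array row does not tell these apart. Tpm3 was called on the deposited values only, with -0.27 for its brightest row and -0.12 after quantile normalization. Its 4 rows disagreed, with differences of -0.27, -0.39, 0.15 and -0.52 from the brightest to the dimmest.

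Of the other muscle-type genes Csrp1 fell, and several gave no call on both scalings. Csrp1, a LIM protein of smooth-muscle filaments, had 10.39 and 10.34 in KrasD12, against 11.30 and 11.38 in WT (-0.98 ± 0.07, adjusted p = 0.000683). Cald1 encodes caldesmon, an actin-binding brake on myosin, and had 11.01 and 10.81 in KrasD12, against 11.18 and 11.22 in WT. Its deposited difference of -0.29 passed (adjusted p = 0.036), while the quantile one of -0.21 did not (adjusted p = 0.0974). Smtn, the gene of the smooth-muscle protein smoothelin, had 8.48 and 8.53 in KrasD12, against 8.44 and 8.43 in WT, and Lmod1, an actin nucleator of smooth muscle, had 6.21 and 6.43, against 6.33 and 6.56 in WT. Smtn was not called on either scaling, and the groups of Lmod1 overlapped on the deposited values. Lmod1 and Pdlim3, a muscle LIM protein gene below the dim level, were called lower after quantile normalization only (-0.46 and -0.45, against -0.13 and -0.05 deposited).

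Synpo2 and Flnc rose. Synpo2, which encodes an actin-bundling protein of muscle Z-discs and smooth-muscle dense bodies, had 7.07 and 7.06 in KrasD12, against 5.74 and 5.95 in WT (1.22 ± 0.09, adjusted p = 0.00073, and 0.91 after quantile normalization), and its call was lost with KrasD12 B left out. The KrasD12 samples agreed closely, and both lay far above the WT values. Flnc, the filamin of striated muscle, had 10.73 and 10.66 in KrasD12, against 10.44 in both WT samples. Its rise was 0.26 ± 0.07 (adjusted p = 0.0223, and 0.30 after quantile normalization). Centring each column on its median turned the sign of Flnc to -0.09, and its call was lost with either KrasD12 sample left out. Des, the muscle intermediate filament gene desmin, had 5.19 and 5.31 in KrasD12, against 4.56 and 4.89 in WT, values around the dim level. Desmin was called as deposited (0.53) and not when quantile normalized (0.13), so it is not counted as a rise.

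**Figure D2:**
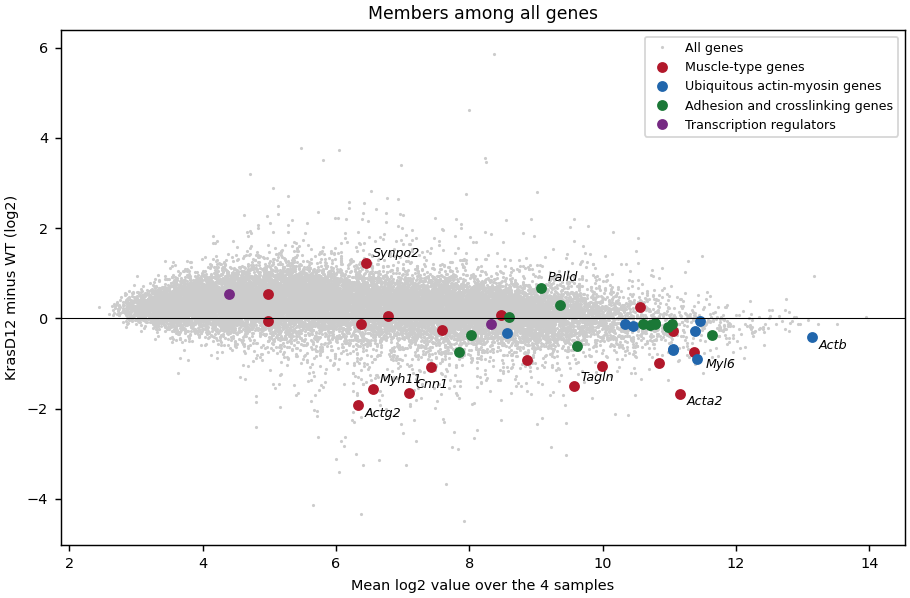
Difference KrasD12 minus WT (log2) against the mean log2 value over the 4 samples for all genes (grey) and for the measured members coloured by class. The smooth-muscle genes from Actg2 to Acta2 lie along the lower edge of the cloud across a wide range of levels, and dim genes as a whole lie above 0.

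Most focal adhesion and crosslinking genes did not pass the test. Vcl, which encodes the adhesion protein vinculin, had 10.96 and 10.82 in KrasD12, against 11.10 and 11.06 in WT (-0.19 ± 0.08, adjusted p = 0.0822). Tln1, the gene of talin that links integrins to actin, had 10.64 and 10.63 in KrasD12, against 10.76 and 10.80 in WT (-0.15 ± 0.07, adjusted p = 0.105). Zyx, the gene of zyxin, a stress-fibre repair protein, had 10.55 in both KrasD12 samples, against 10.71 and 10.64 in WT (-0.13 ± 0.07, adjusted p = 0.159). These 3 lay slightly below WT in both KrasD12 samples, as did 18.7% of all genes, by less than the test could separate. All 3 are bright, and genes with a mean above 10 had a median deposited difference of -0.10. When quantile normalized Vcl, Tln1 and Zyx gave -0.12, -0.09 and -0.07, so a small fall is not read from them. The alpha-actinins that crosslink actin, Actn1 (-0.10) and Actn4 (-0.13), and the LIM protein gene Pdlim7 (0.04) were not called on either scaling. Flna, the main filamin of non-muscle cells, passed as deposited (-0.36 ± 0.07, adjusted p = 0.00934) but not when quantile normalized (-0.20, adjusted p = 0.0749). Pdlim1 was called only after quantile normalization, at -0.54, against -0.37 on the deposited values, and its second row gave -0.05.

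2 LIM protein genes of the adhesion class fell and 2 actin-associated genes rose. Csrp2, a LIM protein of smooth muscle, was read here in the adhesion class and not in the muscle-type class. It had 7.47 in both KrasD12 samples, against 8.23 and 8.20 in WT (-0.75 ± 0.06, adjusted p = 0.000952). Pdlim5, a PDZ and LIM scaffold of actin filaments, had 9.34 and 9.27 in KrasD12, against 9.95 and 9.89 in WT (-0.62 ± 0.07, adjusted p = 0.0017). Palld encodes palladin, an actin crosslinker of stress fibres, and had 9.43 and 9.39 in KrasD12, against 8.73 and 8.74 in WT (0.68 ± 0.07, adjusted p = 0.00119). In these 3 genes each group held together within 0.07 log2 units while the groups lay apart by several times that. Tgfb1i1 (Hic-5), a focal adhesion adaptor, had 9.50 and 9.51 in KrasD12, against 9.19 and 9.24 in WT (0.29 ± 0.07, adjusted p = 0.0135). Its call was lost with either KrasD12 sample left out, and centring the columns turned it to -0.06. Lpp, a relative of zyxin, has 3 rows that disagreed: the brightest gave -0.12 and the others 0.51 and 0.42, and the mean of the rows gave 0.27.

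The 2 regulators gave no call on both scalings. Srf had 8.29 and 8.23 in KrasD12, against 8.40 and 8.37 in WT (-0.13 ± 0.07, adjusted p = 0.157), and after quantile normalization -0.27 (adjusted p = 0.0232). Myocd, the gene of myocardin, lay below the dim level in all samples, with 4.59 and 4.73 in KrasD12, against 4.16 and 4.11 in WT. Its deposited difference of 0.53 (adjusted p = 0.00358) became 0.11 (adjusted p = 0.267) after quantile normalization, so its level cannot be ordered between the lines. Of 25 further genes of RhoA and MRTF signalling, the route by which actin assembly reaches SRF, 24 were measured, with 5 rises, 2 falls and 17 genes lacking a call on one or both scalings. Arhgef11 (0.51 ± 0.07) and Arhgef1 (0.45 ± 0.07), exchange factors that load RhoA with GTP, rose, as did Ppp1r12b (0.51 ± 0.08), a targeting subunit of myosin phosphatase. The formin gene Diaph3 fell by 0.61 ± 0.12. Neither MRTF gene was called on both scalings (Mrtfa -0.26 and Mrtfb 0.16), nor was Rhoa (-0.22). The shares of 5 and 2 in 24 are close to those of all genes.

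**Figure D3:**
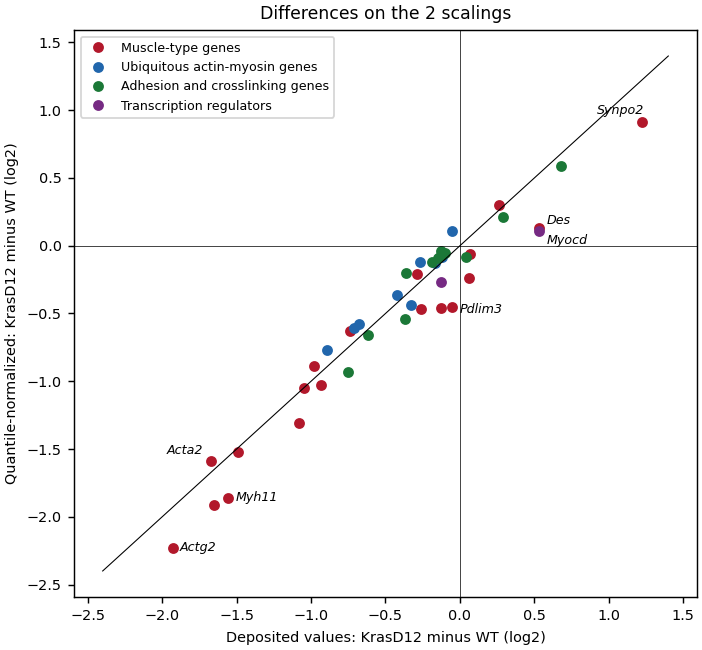
Difference KrasD12 minus WT (log2) of each measured member on the deposited values (horizontal axis) and after quantile normalization (vertical axis), coloured by class, with the line of equal values. The wide falls keep their place on both axes, while dim genes such as Des, Myocd and Pdlim3 lie below the line.

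Setting a muscle-type gene against a related member within each array gives a measure that does not move with an equal shift of all its values. The columns here differed by level: the median deposited difference was 0.26 over all genes and -0.10 for genes with a mean above 10. A pair of a dim and a bright gene can therefore move with the scaling. Quantile normalization gave -1.97 for Myh11 less Myh9 and -1.78 for Cnn1 less Cnn3, but -1.23 for Acta2 less Actb. 12 pairs were measured, and no test was made of them, since an exact permutation test of 2 samples against 2 cannot go below p = 0.333. The log2 value of Acta2 less that of Actb was -2.49 and -2.73 in KrasD12, against -1.29 and -1.43 in WT, so the ratio of the 2 signals was 2.38 times lower in KrasD12. For Cnn1 less Cnn3 the values were -4.09 and -4.13 in KrasD12, against -2.63 and -2.62 in WT. For Myh11 less Myh9 they were -5.74 and -5.58 in KrasD12, against -4.01 and -4.29 in WT. The changes of these pairs were -1.25, -1.49 and -1.51, each several times the spread between A and B, and that of Tagln less Tagln2 was -1.16. These are changes in a signal ratio within a sample, and the level of 1 gene against another is not read from them.

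The light chain and tropomyosin pairs changed by less. Myl9 less Myl6 was -1.47 and -1.55 in KrasD12, against -1.35 in both WT samples, a change of -0.16, since both light chains fell. Tpm2 less Tpm4 changed by -0.25 and Tpm1 less Tpm3 by -0.48. The pairs reuse members already counted above, with Cnn1 and Myh11 recurring, so they add no independent count. Among all single genes, both KrasD12 values lay below both WT values in 18.7% and above them in 64.3%. Over all 12 pairs, 10 were lower and 2 higher in both KrasD12 samples than in WT, and no share over other gene pairs was computed. The higher ones were Pdlim3 less Pdlim1 (0.33, and 0.09 when quantile normalized) and the filamin pair: Flnc less Flna was -0.78 and -0.76 in KrasD12, against -1.41 and -1.35 in WT, a change of 0.61. Csrp1 less Csrp2, 2 related LIM proteins that both fell, changed by -0.23 on the deposited values and by 0.04 after quantile normalization, so its direction is not settled.

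**Figure D4:**
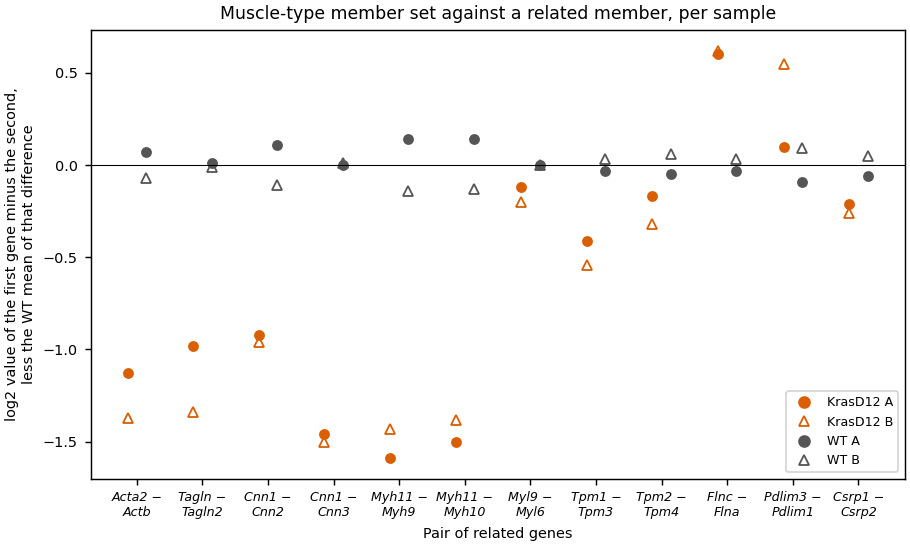
Log2 value of a muscle-type member minus that of a related member in each sample, less the WT mean of that difference, for the 12 measured pairs. Orange marks are KrasD12 and grey marks WT, filled circles sample A and open triangles sample B. The actin, transgelin, calponin and myosin heavy chain pairs lie about 1 or more log2 units below WT, and the pairs Myl9 less Myl6 and Csrp1 less Csrp2 within 0.3 of it.

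Promoter sequences are shown because many of these genes are known SRF targets and 11 of the 19 muscle-type members fell. RefSeq promoter windows (assembly GRCm38.p6, from 250 bases before to 50 after a transcription start) were found for 37 of the 44 members, in 46 windows, some of which overlap. They were searched for the CArG box, whose consensus reads alike on both strands. A strict match stood in 8 of the 46 windows (17.4%), against 535 of all 32851 windows (1.63%). The stretches below hold the strict matches in capitals with 10 bases on each side, 5′ to 3′ on the strand of the gene.
Myl9 (chr2:156775293-156775322, plus strand): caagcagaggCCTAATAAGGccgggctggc
Cnn2 (chr10:79988534-79988563, plus strand): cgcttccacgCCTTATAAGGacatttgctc
Myl6 (chr10:128493040-128493069, minus strand): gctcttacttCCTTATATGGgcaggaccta
Acta1 (chr8:123894829-123894858, minus strand): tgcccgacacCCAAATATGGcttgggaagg
Actc1 (chr2:114052903-114052932, minus strand): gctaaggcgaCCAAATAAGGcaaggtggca
Vcl (chr14:20929161-20929190, plus strand): cccactatgcCCTTATAAGGagcgccccgc
Actg1 (chr11:120348566-120348595, minus strand): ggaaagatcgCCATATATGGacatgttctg
Srf (chr17:46556225-46556254, minus strand): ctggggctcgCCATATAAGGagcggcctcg

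Members with a strict match behaved differently from each other. Myl9, Cnn2, Myl6 and Acta1 fell, while Actc1, Vcl and Srf were not called on both scalings. The matches of Cnn2 and Vcl are the same 10 letters, CCTTATAAGG, which begin 56 bases before the start of Cnn2 and 227 before that of Vcl. Srf holds a second strict match, CCATAAAAGG, that begins 62 bases before its start. Acta2, Cnn1, Mylk, Csrp1, Tpm1, Tpm2, Tpm4, Tagln2 and Pdlim5 also fell and have no strict match in these windows. That says only that these letters are not there. Actg2, Tagln, Myh11, Actb, Csrp2, Tgfb1i1 and Myocd were not searched. Allowing 1 mismatch, a setting added after the strict matches were seen, 19 of the 46 windows (41.3%) matched, against 21.1% of all windows.

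Under that wider rule Acta2 has 2 matches, which begin 84 and 34 bases before its start, and Myl9 has 2 as well. The 250 bases before the start of Acta2, Myl9 and Cnn2 are printed with matches of at most 1 mismatch in capitals, the first and second as fallen muscle-type genes and the third as a fallen ubiquitous one.
Acta2 (chr19:34255374-34255623, minus strand): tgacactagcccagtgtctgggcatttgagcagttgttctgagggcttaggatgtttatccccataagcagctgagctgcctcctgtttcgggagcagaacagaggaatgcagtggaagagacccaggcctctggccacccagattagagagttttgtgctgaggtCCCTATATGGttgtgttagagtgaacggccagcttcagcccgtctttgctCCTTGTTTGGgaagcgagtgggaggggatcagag
Myl9 (chr2:156775214-156775463, plus strand): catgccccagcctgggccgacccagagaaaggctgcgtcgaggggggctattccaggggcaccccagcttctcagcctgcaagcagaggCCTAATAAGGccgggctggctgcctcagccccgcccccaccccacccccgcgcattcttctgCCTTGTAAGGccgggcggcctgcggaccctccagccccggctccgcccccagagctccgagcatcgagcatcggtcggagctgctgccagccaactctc
Cnn2 (chr10:79988350-79988599, plus strand): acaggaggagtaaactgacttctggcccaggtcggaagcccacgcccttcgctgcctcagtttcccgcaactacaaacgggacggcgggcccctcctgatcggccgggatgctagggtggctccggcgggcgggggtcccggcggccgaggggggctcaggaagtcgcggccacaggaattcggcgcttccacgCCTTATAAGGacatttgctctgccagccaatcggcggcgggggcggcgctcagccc

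2 further letter runs were searched on both strands. CATTCC, the core letters bound by TEAD factors, stood in 17 of the 46 windows (37.0%), against 14.7% of all windows. TATAAA stood in 8 windows (17.4%), against 13.6% of all, and the run in Srf overlaps a CArG match with 1 mismatch. A match of letters is a description of the sequence and not a bound site.

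Genes that turn actin over or attach it to the membrane moved both ways. Of 28 actin turnover and FHL genes, 26 were measured, and 10 fell and 6 rose, beside 11.5% and 22.4% of all genes. Their median level was 10.23, and of all genes with a mean above 10, 26.5% fell and 21.6% rose. Tmsb4x, the gene of thymosin beta 4 that sequesters monomeric actin, had 10.39 and 10.20 in KrasD12, against 11.68 and 11.63 in WT (-1.36 ± 0.09, adjusted p = 0.000573). Dstn, the gene of the actin-severing protein destrin, fell by 0.77 ± 0.10. The LIM protein gene Fhl3 rose by 0.98 ± 0.07 and Wasf2, an activator of branched actin assembly, by 0.73 ± 0.07. Among 3 FHL genes in that list, Fhl1 (-0.46) and Fhl2 (-0.36) fell while Fhl3 rose.

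Integrins and adhesion scaffold genes had the widest differences of the pathway lists. Of 38 genes, 37 were measured, with 12 rises (32.4%), 11 falls (29.7%) and 14 others, beside 22.4% and 11.5% of all genes. Itga4, an integrin chain for fibronectin and VCAM1, had 8.23 and 8.02 in KrasD12, against 6.03 and 5.57 in WT (2.33 ± 0.17, adjusted p = 0.000682). Itga2, a collagen-binding chain, had 5.24 and 5.20 in KrasD12, against 7.28 and 7.32 in WT (-2.08 ± 0.07, adjusted p = 0.000137). The KrasD12 mean of Itga2, 5.22, lies just above the dim level, where values are compressed. Its difference was -2.39 after quantile normalization, so the size of the fall is uncertain. Parvb, the gene of an actin-binding partner of integrin-linked kinase, rose by 1.25 ± 0.07, and Lims2, the gene of another such partner, fell by 1.21 ± 0.09. The widely used beta chain Itgb1 (-0.26) and Ilk itself (-0.17) were not called on both scalings.

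The contractile falls were set beside markers of other cells. Of 25 pericyte and vascular smooth-muscle markers chosen apart from the members, 23 were measured, and 4 rose (17.4%) and 2 fell (8.70%), beside 22.4% and 11.5% of all genes. As deposited 9 were higher and 2 lower, and when quantile normalized 4 and 7. The log2 of their summed linear values was 11.11 and 11.09 in KrasD12, against 11.02 and 11.00 in WT. That sum is weighted to the brightest marker, Itga8, which had 9.87 and 9.73 in KrasD12, against 9.75 and 9.76 in WT. Of the 23 measured markers, 16 had means above the dim level. Among them Notch3 had 8.05 and 8.14 in KrasD12, against 7.99 and 7.95 in WT. Rgs5 and Kcnmb1 stayed below the dim level in all 4 samples. Gucy1b1, a nitric oxide receptor subunit of smooth muscle, fell with the contractile genes (-1.67 ± 0.12), and Mustn1 fell by 0.85 ± 0.07. Cspg4 (0.76 ± 0.07) and Ednrb (0.75 ± 0.09) rose. The part of such cells in the contractile falls was not tested.

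All 15 fibroblast markers had means above the dim level, among them Col1a1 with 12.09 and 12.17 in KrasD12, against 12.76 and 12.69 in WT, and Vim with 12.79 and 12.74, against 12.86 and 12.88. They were not level between the lines: 6 fell (40.0%) and 3 rose (20.0%), beside 11.5% and 22.4% of all genes. Their median level was 10.75, and of all genes with a mean above 10, 26.5% fell and 21.6% rose. Col1a1 was among the falls (-0.60), as were Tcf21, a transcription factor of lung mesenchyme (-2.03 ± 0.14), S100a4 (-1.0 ± 0.14) and Fap (-0.83 ± 0.09), while Fbln1 rose by 0.74 ± 0.08.

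Markers of other cell types were in part dim. Of the epithelial markers 9 of 15 had means above the dim level, of the endothelial 5 of 12, of the leukocyte 6 of 13 and of the mesothelial 5 of 7. Epcam, Pecam1, Cdh5 and Ptprc lay below it in all 4 samples, whereas Krt8 averaged 6.76 in KrasD12 and 6.27 in WT, Egfl7 6.74 and 6.19, and Cd68 6.60 and 5.89. On both scalings 2 epithelial markers rose (13.3%), the surfactant genes Sftpc (0.92 ± 0.07) and Sftpb (0.70 ± 0.11), and 0 fell. None of the endothelial or mesothelial markers was called on both, the widest differences being those of Tie1 (0.60), Esam (0.59), Upk3b (0.57) and Msln (-0.40). Of 13 leukocyte markers 3 fell (23.1%), Lyz2 (-1.48 ± 0.10), Cd14 (-0.45) and Csf1r (-0.43), and 3 rose (23.1%), Fcer1g (0.79) among them, beside 11.5% and 22.4% of all genes. Of 29 sarcomere and striated muscle genes 3 rose (10.3%) and 0 fell, namely Tnni2 (0.68 ± 0.08), with means of 6.76 in KrasD12 and 6.08 in WT, and Myl1 (0.85) and Myf5 (0.73), both below the dim level. As deposited 18 of the 29 were higher and 0 lower, and when quantile normalized 3 and 8. The KrasD12 means of Gucy1b1, Tcf21, Fap, Lyz2 and Csf1r and the WT means of Sftpc, Fcer1g, Tie1 and Esam lay below the dim level, where values are compressed and the size of a difference is uncertain. The part of such cells in the contractile differences was not tested.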

How the data were processed

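Total RNA of 4 samples, 2 per group, was measured on Affymetrix mouse gene arrays. The deposited values are log2 expression values, rounded by the authors to 2 decimals. The Transcriptome Analysis Console is named in the submitters' processing notes. Neither its version nor the background correction or normalization is stated there. The small number of arrays limits the precision.

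Of 28944 rows, 21789 have 1 gene symbol in the platform annotation, 1621 several and 5534 none, and 21698 of the first kind were found in the mouse list of RefSeq genes, which gave current names. Only rows with 1 symbol were used, and the row with the highest mean stood for a gene. The test was limma's (version 3.58.1, under R 4.3.3) moderated two-sided test with group as the only term, adjusted by Benjamini-Hochberg over all 19938 genes at 0.05, with no filter on low values. The fit was tested on simulated data. Quantile normalization ran over all rows and gave the second scaling that rose and fell require. Summaries and plots were made with pandas 2.3.3 and matplotlib 3.10.9 in Python 3.11.15.

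The members, classes, lists and alternatives were chosen with earlier results of these data known. All measured members are named, and of each other list up to 4 genes called on both scalings and above the dim level in a group, by size of difference, or the 2 largest where under 2 were called. Further list genes (Fhl1, Fhl2, Itgb1, Ilk, Mrtfa, Mrtfb, Rhoa, Col1a1, Vim, Krt8, Egfl7, Cd68 and Tnni2) were named after their values were seen. So were the markers Itga8, Notch3, Rgs5, Kcnmb1, Epcam, Pecam1, Cdh5 and Ptprc. Alternatives were other scalings, the replicate block, a dim filter, other variance models, row means, a 2-fold minimum and each sample left out. Letters A and B share no stated batch, so they do not pair the samples.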

Additional observations from a re-analysis of the deposited data

How the results depend on the processing

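On the deposited values alone 6 members were higher and 21 lower, of them 3 and 12 muscle-type, 0 and 6 ubiquitous, and 2 and 3 adhesion genes. Centring each column on its median gave 2 higher (muscle-type 1, adhesion 1) and 37 lower (adhesion 11), and turned Pdlim7 to -0.31, Tgfb1i1 to -0.06, Actc1 to -0.29, Smtn to -0.28 and Flnc to -0.09. Without variance shrinkage 3 were higher (muscle-type 1), and with a mean-variance trend 9 adhesion genes were lower. With a 2-fold minimum 0 were higher (0 muscle-type, 0 adhesion) and 3 lower, all muscle-type (ubiquitous 0, adhesion 0). Leaving out 1 sample gave 0 to 3 higher (muscle-type 0 to 1, adhesion 0 to 1) and 0 to 15 lower (muscle-type 0 to 11, ubiquitous 0 to 2, adhesion 0 to 2). The mean of its rows turned Lpp to 0.27.

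In the other lists together the higher calls numbered 39 after quantile normalization, 23 after centring, 41 after loess, 29 without shrinkage, 1 with the 2-fold minimum, 38 on both scalings and 0 to 41 with 1 sample left out. The lower calls numbered 80 after centring, 21 without shrinkage, 2 with the 2-fold minimum and 0 to 27 with 1 sample left out.

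Among the pairs, quantile and loess normalization gave -1.29 and -1.29 for Cnn1 less Cnn2, -1.78 and -1.79 for Cnn1 less Cnn3, -1.97 and -1.95 for Myh11 less Myh9, -1.78 and -1.79 for Myh11 less Myh10, -0.28 and -0.27 for Myl9 less Myl6, -0.45 and -0.43 for Tpm2 less Tpm4, 0.50 and 0.53 for Flnc less Flna and 0.04 and 0.04 for Csrp1 less Csrp2. Loess gave -1.41 for Acta2 less Actb. With 1 sample left out the pairs ranged from -1.37 to -1.13 (Acta2 less Actb), -1.34 to -0.98 (Tagln less Tagln2), -1.05 to -0.83 (Cnn1 less Cnn2), -1.51 to -1.47 (Cnn1 less Cnn3), -1.65 to -1.37 (Myh11 less Myh9), -1.58 to -1.31 (Myh11 less Myh10), -0.20 to -0.12 (Myl9 less Myl6), -0.54 to -0.41 (Tpm1 less Tpm3), -0.33 to -0.18 (Tpm2 less Tpm4), 0.58 to 0.64 (Flnc less Flna), 0.10 to 0.55 (Pdlim3 less Pdlim1) and -0.29 to -0.18 (Csrp1 less Csrp2).

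With the letters A and B as a replicate block, 6 members were higher and 21 lower, and all 22 members called on both scalings kept their call. The block ended the deposited call of Cald1 and added one for Pdlim1, and same-letter deviations correlated at 0.013 over all genes. Of those 22 calls, centring lost Tgfb1i1 and Flnc, loess lost Actb, and a missing shrinkage lost Tagln, Tpm1, Acta1, Flnc, Cnn2 and Tagln2. The dim filter, trend, robust and row-mean settings lost none. With a WT sample left out the lone WT sample is assumed to vary like the KrasD12 samples. The causes of these shifts were not tested. Dim genes have compressed values. A planned comparison of actin protein sequences was not run.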
